A study of Rattus norvegicus with 9 samples.

Results

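Left testes of rats with an experimental varicocele were compared after gavage with a polysaccharide of Morinda officinalis or with saline, in 6 of the 9 libraries of the study, 3 per group. In a varicocele the veins that drain the testis are dilated. All the Sprague Dawley males compared here had the left renal vein partly ligated, and animals without dilation or with an atrophied left kidney were excluded per the labels. From 8 weeks after that operation the saline group (VC) received about 2 mL of saline daily, and the treated group (VC+MOP) received 300 mg of the polysaccharide per kg daily, each for 4 weeks. The labels give an age of 6 to 7 weeks without naming the step it refers to. The 3 sham-operated control libraries had no ligation and no gavage listed, and they enter here as a reference level and in the shared estimate of spread. The labels do not state that each library came from its own rat, so p-values here cover library-to-library spread, which may be technical.

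The testis makes sperm in tubules in which Sertoli cells nurse the germ cells, while Leydig cells between the tubules make testosterone. Venous stasis in a varicocele is associated with heat, low oxygen and oxidative stress in the testis, and with loss of germ cells. The root of Morinda officinalis is used in Chinese medicine for male reproductive complaints, and its water-soluble, alcohol-precipitated fraction holds polysaccharides. The comparison of VC+MOP with VC addresses what this fraction changes in transcripts of a testis that already has a varicocele.

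Of the 19532 transcripts in the table, 18709 reached 0.5 in 3 or more of the 6 libraries and were tested, and 823 were left out. Of those tested, 16564 (88.5%) reached it in each of the 6. Another 584 met the minimum in exactly 3 libraries, among them 34 in the 3 VC libraries alone and 33 in the 3 VC+MOP libraries alone. The filter did not use the groups, and in 517 of the 584 the 3 libraries were mixed across groups. Transcripts of the 34 and the 33 met it only through the group where they were higher. The identifiers are rat Ensembl transcripts, and none (0 of 19532) was paired with a gene in the tables used here. The testis label could therefore not be checked against marker genes, and fewer cells of a type could not be told apart from less RNA per cell. Library sums ran from 480393 to 486011, medians from 5.31 to 5.46, and 213 to 238 transcripts were listed at 0. Read depth is unknown, so no counting interval is given.

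Few transcripts passed the adjusted threshold between treated and untreated testes. Of 18709 transcripts 5 passed an adjusted p below 0.05, which is 0.0267% (limma, Benjamini-Hochberg over all transcripts tested), and 3 of them rose (0.016%) and 2 fell (0.0107%) with the polysaccharide. The 3 that rose reached means of 3.79, 21.6 and 22.6 in VC+MOP, beside a median transcript at 5.31 to 5.46. The 2 that fell were rare in VC, below 1 on average, and were listed at 0 in each treated library.

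ENSRNOT00000070986 had the smallest p. It was listed at 0.865, 0.905 and 1.25 in the VC libraries and at 21.9, 25.6 and 20.3 in the VC+MOP libraries. The groups lay far apart, and the control libraries (0.848, 0.977 and 1.02) stood at the VC level. The mean went from 1.01 ± 0.209 to 22.6 ± 2.75 (SD, n = 3 each), a ratio of 22.5. On the log2(value + 0.5) scale the fold change was 3.94 ± 0.13 (SE; 95% interval 3.64 to 4.24; limma adjusted p = 1.55e-05).

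A further transcript that rose behaved much like it. Its abundance was 3.01, 3.59 and 4.37 in VC and 22.1, 23.7 and 19.0 in VC+MOP, and the control libraries stood at 2.91, 3.0 and 3.4. Its mean in VC+MOP, 21.6 ± 2.43, was close to the 22.6 of ENSRNOT00000070986, from a VC mean of 3.66 ± 0.684 (SD, n = 3 each). The ratio of means was 5.91, and the log2 fold change was 2.42 ± 0.14 (SE; limma adjusted p = 0.000363). For both transcripts the highest treated library was VC+MOP 2 and the lowest VC+MOP 3.

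ENSRNOT00000023376 differed in kind, because the VC libraries rather than the treated ones stood apart. It was listed at 0.00095, 0.00155 and 0.000601 in VC and at 4.35, 3.51 and 3.5 in VC+MOP (limma adjusted p = 6.43e-05). The control libraries, at 3.95, 4.95 and 3.77, overlapped the treated ones. Against values this close to 0 a fold would have no meaning. This transcript met the filter through the VC+MOP libraries alone.

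ENSRNOT00000013868 fell. Its VC values were 0.835, 0.801 and 1.31, and all 3 treated libraries listed it at 0 (limma adjusted p = 0.0339). The control libraries held 0.874, 1.08 and 0.914, within the range of VC. The filter was met through the VC libraries alone, and the SD of 0 in VC+MOP lowered the transcript's estimate of spread. It did not pass with no filter or with the 6 libraries alone (limma adjusted p = 0.0598 and 0.225).

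ENSRNOT00000047241 also fell, from 1.01, 0.764 and 0.71 in VC to 0 in each treated library (limma adjusted p = 0.0339). It was listed at 0 in the 3 control libraries too, so that among the 9 libraries it was present in VC alone. It met the filter through the VC libraries alone, and the SD of 0 in control and VC+MOP lowered its estimate of spread. With the 6 libraries alone it did not pass (limma adjusted p = 0.216), so the fall is described rather than established.

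**Figure D1:**
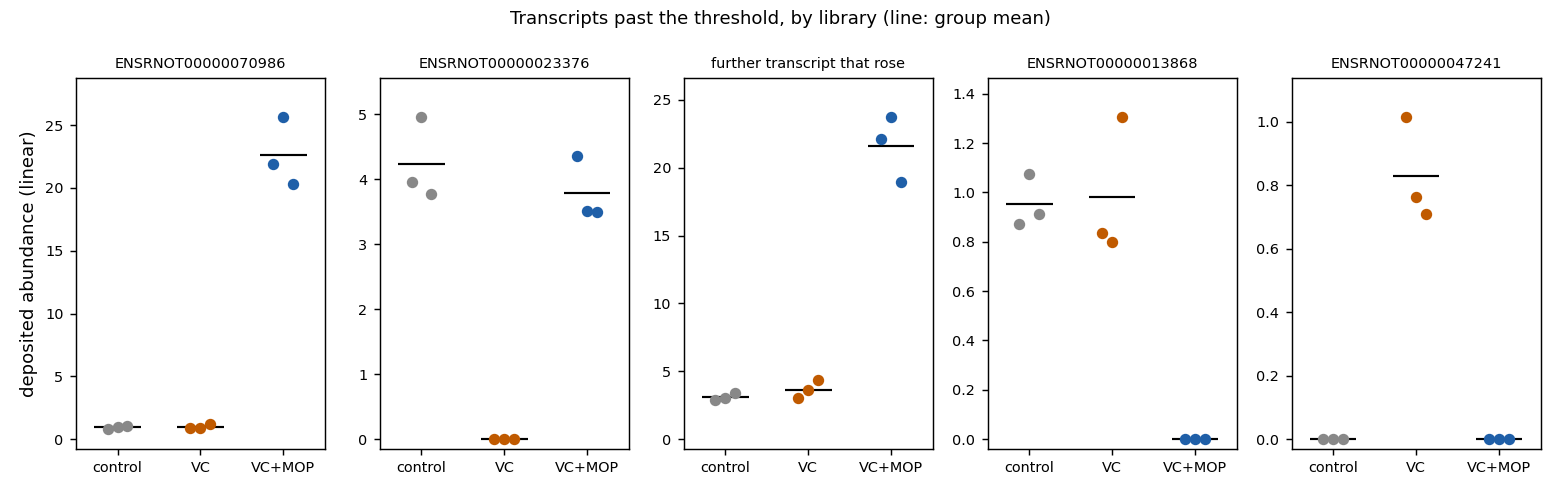
Deposited abundance (linear axis from 0, one scale per panel) of the 5 transcripts past an adjusted p below 0.05 in each control, VC and VC+MOP library; points are libraries and lines are group means. The VC+MOP libraries lie above 18 for ENSRNOT00000070986 and the further transcript that rose, and at 0 for both that fell; the VC libraries lie near 0 for ENSRNOT00000023376.

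The 3 rises and the 2 falls were not equally firm. Each of the 3 transcripts that rose passed in 19 of 19 other settings, including the 9 in which a library was left out. ENSRNOT00000013868 passed in 6 of 18 settings, and in 1 of the 9 that left out a library (limma adjusted p between 0.0447 and 0.122). ENSRNOT00000047241 passed in 3 of 18 and in none of those 9 (limma adjusted p between 0.0666 and 0.148). Over all settings the highest adjusted p was 0.272 for each of these falls (limma with a replicate block). Both transcripts that fell entered the test through the VC libraries alone, and ENSRNOT00000023376 entered it through the VC+MOP libraries alone. For 3 of the 5 the filter was thus met only by the group where they were high. The number of transcripts past the threshold was 7, 5 and 12 without VC 1, VC 2 and VC 3. It was 9, 8 and 12 without VC+MOP 1, VC+MOP 2 and VC+MOP 3, and 3, 5 and 6 without control 1, control 2 and control 3.

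A further 5 transcripts had an adjusted p between 0.05 and 0.10 (limma) and so did not pass. The most abundant of them was listed at 41.5, 74.6 and 24.8 in VC and at 2.28, 2.17 and 6.28 in VC+MOP. Its groups did not overlap, but the VC libraries varied widely, and its log2 fold change was -3.54 ± 0.44 (SE; limma adjusted p = 0.0777). Its control libraries held 62.3, 47.7 and 54.7. The 1 transcript of the 5 with higher values under treatment stood at 2.63, 1.96 and 2.64 in VC and at 10.2, 10.8 and 8.71 in VC+MOP, with log2 fold change 1.84 ± 0.24 (SE; limma adjusted p = 0.0796). Control libraries stood at 9.02, 5.94 and 12.7, again with a wide spread. The other 3 had VC means of 2.01, 1.15 and 0.815 and VC+MOP means of 0.0213, 0.209 and 0.0371.

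Switch-like patterns were looked for directly, as transcripts below 0.05 in each library of a group and at 0.5 or more in each library of the other. There were 11 of them among 19532 (0.0563%). In 3 (0.0154%) the VC libraries were near 0, and in 8 (0.041%) the VC+MOP libraries were. All 11 were rare: their means in the group that held them ran from 0.717 to 3.79 for those near 0 in VC and from 0.609 to 3.06 for those near 0 in VC+MOP. By limma 1 of the 3 and 2 of the 8 passed the threshold, and those are ENSRNOT00000023376, ENSRNOT00000013868 and ENSRNOT00000047241.

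The most abundant of the 8 shows how uneven such transcripts can be within a group. It was listed at 5.78, 2.63 and 0.772 in VC and at 0 in all treated libraries, but also at 4.07, 0 and 0 in control (limma adjusted p = 0.787). The control libraries took no common side: of the 8, control was near 0 in all its libraries in 2 and at 0.5 or more in all in 2, and of the 3 it was at 0.5 or more in all in 1. In the remaining transcripts the control libraries were split or intermediate. The definition fixes the direction in VC and VC+MOP, so their separation is a description.

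**Figure D2:**
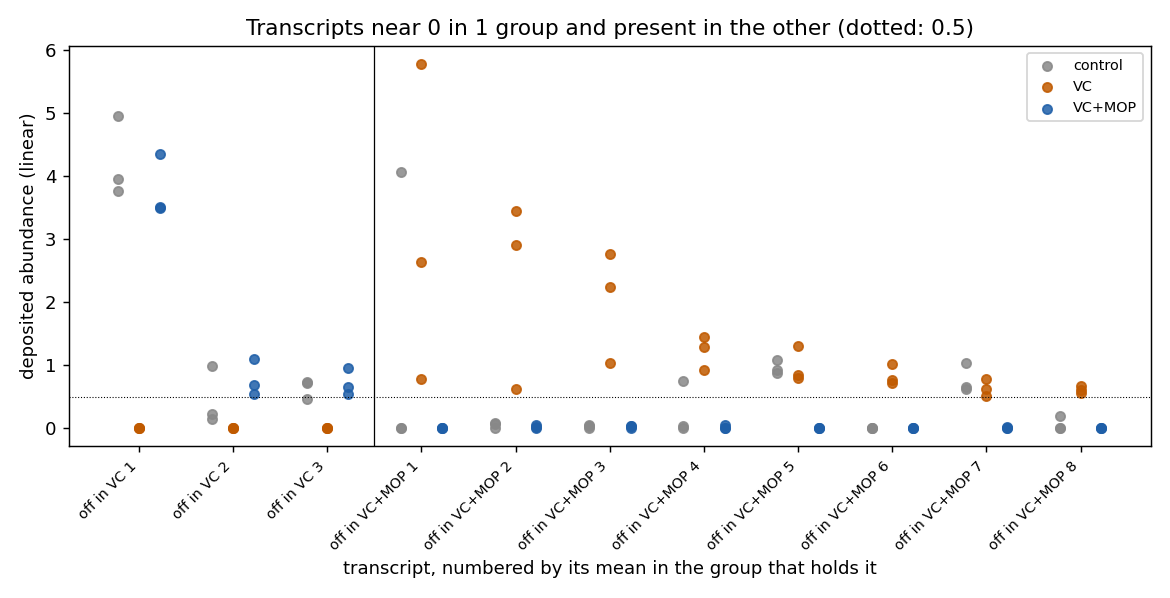
Deposited abundance (linear axis) of the 11 transcripts below 0.05 in each library of VC (left of the line) or of VC+MOP (right) and at 0.5 or more (dotted line) in each library of the other; points are single libraries. Present levels reach 5.78, and the control libraries lie on either side or on both.

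Zeros and near-zeros also arose inside groups. Among the 6 libraries 705 transcripts were listed at 0 at least once, and 89 of these stood at 5 or more in another of the 6 libraries. In 79 the 0 and the value of 5 or more were within the same group. A transcript with a high fold change that did not pass was listed at 0, 0 and 15.9 in VC and at 17.1, 12.7 and 17.4 in VC+MOP (log2 fold change 3.33 ± 1.63, SE; limma adjusted p = 0.787). Its control libraries held 0, 0 and 14.9, so that both groups given no polysaccharide were mixed. Whether a listed 0 is an absent transcript or a failed estimate cannot be told from abundances alone.

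The transcript with the lowest fold change differed from this, because it was mixed in control and not in VC or VC+MOP. That transcript stood at 14.1, 17.8 and 16.7 in VC and at 0.584, 0.585 and 0.88 in VC+MOP. The groups were well separated, yet control held 15.2, 13.6 and 0.631, and this spread entered the shared estimate of error. The log2 fold change was -3.82 ± 0.87 (SE; limma adjusted p = 0.688).

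In all, 271 transcripts differed by at least 2-fold on the log2(value + 0.5) scale, 121 higher and 150 lower in VC+MOP. The VC and VC+MOP libraries overlapped in 172 of the 271. An unadjusted p below 0.05 was reached by 113 of them (0.604% of transcripts tested), 51 higher and 62 lower, and 158 did not reach it. Most of the 113 were of low abundance, with 24 at a mean below 1, 60 at 1 to 5, 22 at 5 to 20, 7 at 20 to 100 and 0 above that.

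**Figure D3:**
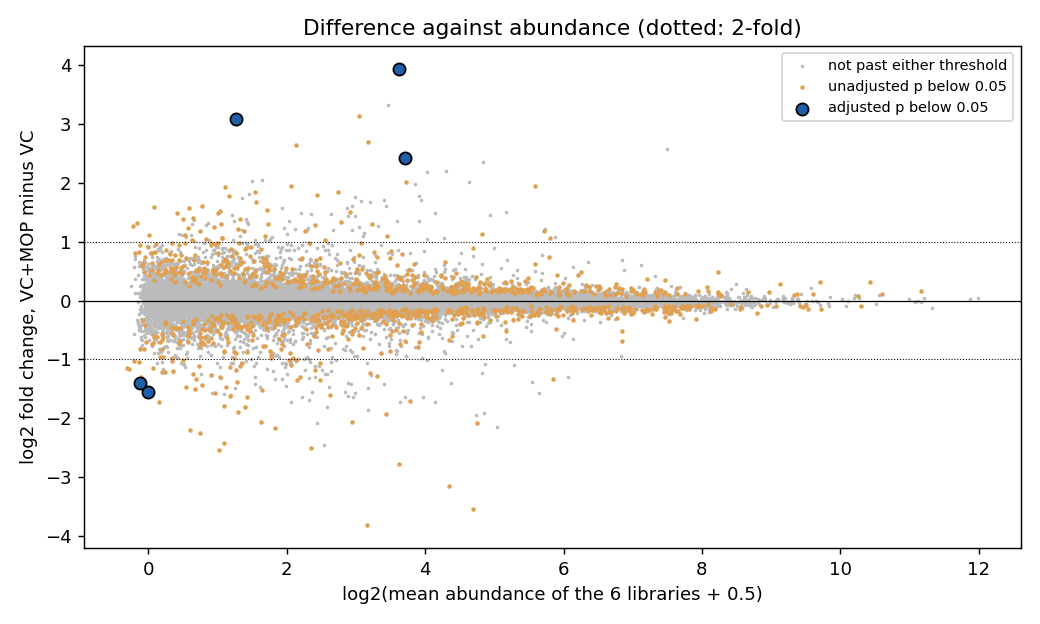
Log2 fold change of VC+MOP minus VC on the log2(value + 0.5) scale against log2 of the mean abundance over the 6 libraries plus 0.5, for 18709 transcripts; dotted lines mark 2-fold, orange points an unadjusted and blue points an adjusted p below 0.05. Of the 5 blue points 3 lie above 0 and 2 below, and the cloud narrows toward abundant transcripts; the heights of the 3 with a group at or near 0 depend on the pseudocount.

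Without adjustment, 1178 transcripts (6.3%) had p below 0.05, 559 higher (2.99%) and 619 lower (3.31%) in VC+MOP. Their differences were small, with a median absolute log2 fold change of 0.3. The median fell with abundance, from 0.69 at a mean below 1 to 0.49, 0.27, 0.19 and 0.14 in the classes of 1 to 5, 5 to 20, 20 to 100 and at least 100. The median SE of all transcripts fell too, from 0.213 in the lowest class to 0.051 in the highest. A p below 0.05 needs a difference that is large beside its SE, so this gradient follows at least in part from the selection. The libraries of VC and VC+MOP did not overlap in 2160 transcripts (11.5%), of which 996 (5.32%) were higher and 1164 (6.22%) lower under treatment. Without any difference, 3 against 3 libraries separate with probability 0.1, and the count was not tested against this. Both splits depended on scaling. After median-of-ratios scaling 593 were higher and 569 lower at an unadjusted p below 0.05, and 1048 and 1113 did not overlap. After quantile normalization these were 613, 588, 1064 and 1097.

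The class of abundant transcripts, 986 with a mean of at least 100, had the highest share at an unadjusted p below 0.05, 13.8% against 4.65% to 7.01% in the other classes. Its differences leaned downward: 84 were lower and 52 higher in VC+MOP, and 116 against 65 did not overlap between groups. The lean depended on scaling, with 57 lower and 52 higher after median-of-ratios scaling and 56 lower and 63 higher after quantile normalization. Its size also moved with single libraries, with lower transcripts outnumbering higher ones in each of the 6 omissions. Relative to the mean of the 6 libraries, the median transcript of this class deviated by -0.0267 (log2) in VC+MOP 3 and 0.023 in VC 3, and by -0.0014 to 0.0039 in the other 4. Without VC 1, 2 and 3 in turn there were 71, 56 and 63 lower beside 43, 36 and 53 higher. Without VC+MOP 1, 2 and 3 there were 112, 92 and 31 lower beside 60, 63 and 21 higher. The high share of this class moved as well. It was lowest without VC+MOP 3, at 31 lower and 21 higher of the 986, against 84 and 52 with all libraries.

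None of these 986 transcripts passed the adjusted threshold (limma, lowest adjusted p = 0.421), although 136 had an unadjusted p below 0.05. The one with the smallest p was listed at 786.9, 775.4 and 774.3 in VC and at 701.5, 705.7 and 700.8 in VC+MOP. Its groups were tight and separate, at 778.9 ± 7.01 and 702.7 ± 2.68 (SD, n = 3 each), a ratio of 0.902 (limma adjusted p = 0.421). The smallest p among those higher in VC+MOP belonged to a transcript at 1207, 1261 and 1187 in VC and at 1408, 1534 and 1639 in VC+MOP, a ratio of means of 1.25 (limma adjusted p = 0.421). Control libraries stood at 1300, 1176 and 1207 for it, below each treated library.

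Of the 986 abundant transcripts 22 differed by 1.2-fold or more, and 1 by 2-fold or more. That 1 rested on a single library: it was listed at 213, 0.475 and 225 in VC and at 215, 217 and 215 in VC+MOP (limma adjusted p = 0.827). With the value of VC 2 aside, the other 5 libraries lay within 213 to 225.

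For most transcripts a difference of more than 2-fold lay outside the 95% interval. The interval lay inside 2-fold for 16508 transcripts (88.2%), inside 1.5-fold for 72.1% and inside 1.2-fold for 26.3%. The median SE was 0.124 on the log2 scale beside a median absolute difference of 0.095. The share inside 2-fold rose with abundance, from 74.0% at a mean below 1 to 83.1%, 92.6%, 97.0% and 99.1% in the higher classes. That scale understates folds of rare transcripts, so the shares in the lowest classes do not bound folds of the abundance itself. With pseudocounts of 0.1 and 1 the share inside 2-fold over all transcripts was 82.2% and 92.2%. The interval lay inside 1.2-fold for 80.1% of transcripts at a mean of 100 or more, for 4.02% at 1 to 5 and for 0% below 1. Differences of that size in rare transcripts could not be bounded with these libraries.

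**Figure D4:**
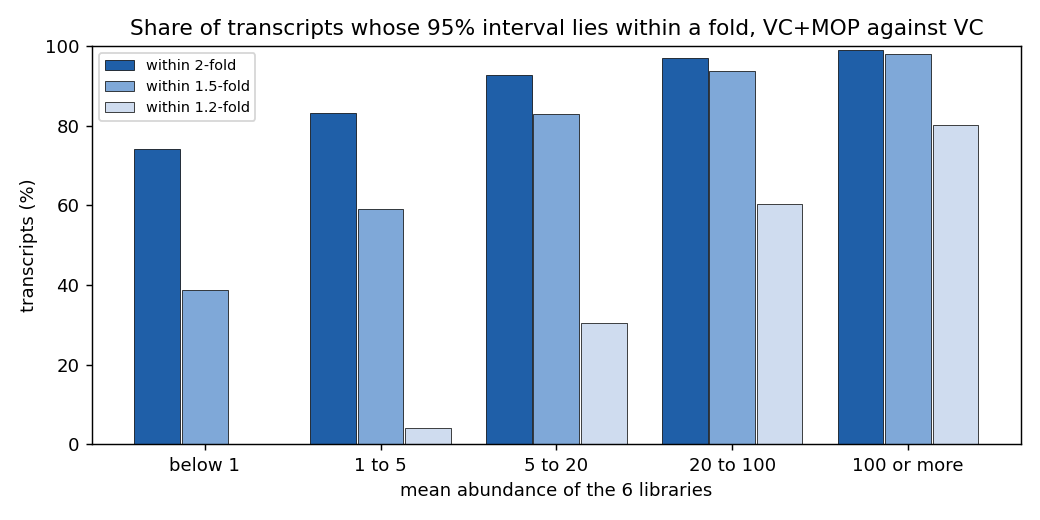
Percentage of transcripts (vertical axis, from 0) whose 95% interval of the fold change of VC+MOP against VC lies within 2-fold, 1.5-fold or 1.2-fold, by class of mean abundance over the 6 libraries. At a mean of 100 or more the shares are 99.1%, 97.9% and 80.1%, and below 1 they are 74.0%, 38.6% and 0%.

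Library by library, treated and untreated testes were about as alike as testes of the same group. The median absolute log2 difference across transcripts was 0.136 to 0.155 for the 3 pairs of VC libraries, 0.14 to 0.153 for the 3 pairs of VC+MOP libraries and 0.128 to 0.171 for the 9 pairs between groups. Between 3.92% and 4.27% of transcripts differed by more than 2-fold in pairs between groups, against 3.77% to 4.12% within VC and 3.93% to 4.08% within VC+MOP. The spread within the groups was also alike, with a median coefficient of variation of 9.9% in VC and 10.2% in VC+MOP.

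The median log2 fold change over all transcripts was -0.008, less than the 0.0125 (SD) by which library medians varied within groups. It was 4e-04 without VC+MOP 3, -0.0046 without VC 2 and -0.0013 after median-of-ratios scaling, so its sign rests on VC+MOP 3. The 100 most abundant transcripts held 17.595%, 17.995% and 17.277% of the summed abundance in VC and 17.627%, 17.79% and 18.063% in VC+MOP. These ranges overlapped, with means of 17.622% ± 0.36 and 17.827% ± 0.22 (SD, n = 3 each; exact permutation test, two-sided, p = 0.4, where 3 against 3 cannot go below 0.1). The difference of 0.205 percentage points became 0.391 without VC 2, 0.032 without VC 3 and 0.087 without VC+MOP 3.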

How the data were processed

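RNA from left testes was made into libraries by fragmentation, random priming and dUTP marking of the second strand, per the labels' protocols. The deposited table holds a linear abundance signal per transcript and library; per the file headers its unit (FPKM or TPM) is unnamed. Tools named in the submitters' processing notes are StringTie 1.3.1c, HISAT2 2.0.5 and cutadapt. The build named there is hg19, which is human, although the identifiers are rat, and no annotation release is stated.

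Libraries were grouped by their titles. The unscaled values were transformed to log2(value + 0.5), which understates folds of rare transcripts. limma 3.58.1 (R 4.3.3) fitted all 9 libraries with group as the only term, 6 residual degrees of freedom and a variance trend, two-sided. It was tested on simulated data. The simulation used normal noise on the log2 scale with no floor at 0, so it does not cover transcripts listed at 0 in a group. Alternatives were other pseudocounts, filters, scalings, variances and thresholds, the 6 libraries alone, a replicate block and single libraries left out. The filter, 0.5 or more in at least 3 of the 6 VC and VC+MOP libraries, differs from one over 9 libraries and sets how many transcripts are tested. The members, lists and tests were chosen with earlier results of these data known. The transcripts named are those with the smallest p, at most 2 in each direction; lists of marker genes could not be used without gene names, and no sequences are shown. Figures were drawn with matplotlib 3.10.9.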

Additional observations from a re-analysis of the deposited data

How the results depend on the processing

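The count of 5 transcripts past the adjusted threshold became 3 with no filter on low values, 3 when the 6 libraries had to average 1 or more, 10 for a threshold of 0.10 and 113 for 2-fold with p unadjusted below 0.05. It ranged from 3 to 12 without single libraries. The 2 pseudocounts, both scalings, robust variances, the filter over 9 libraries and a fit of the 6 libraries alone gave 4 to 6. The fit of the 6 libraries alone gave 6, of which 5 were higher and 1 lower, and kept 3 of the 5. Both named falls failed there (limma adjusted p = 0.225 for ENSRNOT00000013868 and 0.216 for ENSRNOT00000047241). Of the 5 in the report, every setting kept at least 3. The 11 transcripts near 0 in a group became 2 when 1 or more was required in each library of the other and 6 when exactly 0 was required, and they ranged from 20 to 27 without single libraries. The 2160 transcripts with no overlap became 3564 to 4523 without single libraries; fewer libraries make both conditions easier to meet, and these omissions were chosen after seeing the data. With the replicate number as a block 3 transcripts passed. Over all transcripts tested, libraries that share a number did not deviate together (correlations -0.039, -0.051 and -0.042). A pairing limited to some transcripts was not tested. Of the refitted values of the 4 named transcripts 47 kept their call, 27 lost it and 0 changed direction. Each loss was of a named fall. The 2 named rises kept their call in 19 of 19 settings each, and the falls in 6 of 18 and 3 of 18. The cause was not tested. The difference in the share of the 100 most abundant transcripts, 0.205 percentage points, was -0.083 for the 1000 most abundant, a set chosen after seeing the data.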
